A study of Arabidopsis thaliana with 4 samples.

Results

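Genes with less RNA in leaves of the *ldl1 ldl2* double mutant than in wild-type leaves, in each of the replicate numbers of the study, were described as a group. The members were chosen from measured values: among the 16905 genes with a mean of at least 1 FPKM (fragments scaled to transcript length and to the mapped fragments of the library) over the 4 libraries, a member had a ratio (*ldl1 ldl2* FPKM + 1)/(WT FPKM + 1) of at most 1/1.5 in replicate 1 and again in replicate 2. This rule gave 252 genes, 1.49% of those examined, while the mirror rule for higher RNA gave 487 genes, or 2.88%. The genotype ratios below chose the genes, so they are given as a description with no test, and they lend no support to a difference between the genotypes.

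Rosette leaf RNA came from uninfected *Arabidopsis thaliana* plants that were 3 weeks old and had grown under 12 h of light per day. WT was the accession Col-0, and the double mutant carried the T-DNA insertions *ldl1-1* and *ldl2-1*, brought together by crossing in that background. Each genotype had 2 biological replicates, and the labels do not say whether a replicate number stands for a shared tray, day or harvest time. The label check on the mutated genes gave mixed values. *LDL1* had 4.37 and 5.001 FPKM in replicates 1 and 2 of WT, against 4.44 and 4.09 in *ldl1 ldl2*, so the genotypes overlapped. *LDL2* had 1.04 and 0.944 FPKM in WT, against 0.281 and 0.673 in the mutant, which did not overlap. A whole-gene FPKM does not show on which side of an insertion the reads lie. The leaf markers RBCS1A, LHCB1.3, CA1 and RCA were at 1043 FPKM or more in every library, the 11 seed markers summed to at most 0.130 FPKM, and 4 of 5 root markers stayed under 1 FPKM in every library, SCR being at 5.75 to 7.73. The 5 flower markers SEP3, AP1, AP3, AG and PI summed to 0.602 FPKM in WT replicate 1, 14.1 in WT replicate 2, 2.78 in *ldl1 ldl2* replicate 1 and 4.89 in *ldl1 ldl2* replicate 2, so WT replicate 2 stood apart.

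LDL1 and LDL2 belong to the plant family related to the human histone demethylase LSD1, enzymes that remove methyl groups from lysine 4 of histone H3. The largest set of related functions among the 252 genes is the making of ribosomes. Ribosomal RNA is transcribed and trimmed in the nucleolus with the help of small nucleolar ribonucleoprotein particles, helicases and methyltransferases, and is then joined with ribosomal proteins into the large and small subunits. In Arabidopsis the genes for these proteins often carry the telo-box (AAACCCT) and site II elements (TGGGCC or TGGGCT) shortly before the transcription start.

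The members were sorted by annotated function after their values had been seen. Cytosolic ribosomal proteins and the ribosome-associated RACK1 proteins made up 15 genes, ribosomal proteins of mitochondria and plastids 6, and ribosome biogenesis and nucleolar factors 27. A further 25 acted in folding, import or gene expression in organelles, 15 were other RNA-binding or RNA-processing proteins, 13 transcription factors, 9 genes of the cell cycle, cytokinin and auxin, 9 of biotic responses, 6 of histones and nucleosomes, 6 of cold and dehydration, 5 of starch and sugar and 4 of phenylpropanoids. Of the rest, 84 had another annotation, 21 had no annotated function and 7 were non-coding RNAs or transposable element genes.

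Promoters of 6 ribosome and nucleolus members, and that of the cold gene COR15A with other elements, show the letters in place. The 6 were chosen because they hold both elements in the window, and COR15A because it holds its elements. Each line is the 120 bases before the annotated gene start, read 5′ to 3′ on the gene's strand from the RefSeq assembly TAIR10.1. Capitals mark the telo-box and site II letters on either strand in the first 6, and the letters CCGAC (core of the dehydration-responsive element) and CACGTG (G-box) in COR15A.
AT1G18540 (ribosomal protein L6 family, chr1:6378581-6378700, minus strand): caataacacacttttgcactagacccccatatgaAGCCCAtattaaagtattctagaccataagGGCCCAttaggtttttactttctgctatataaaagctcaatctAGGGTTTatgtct
AT3G45030 (ribosomal protein S10p/S20e family, chr3:16472410-16472529, minus strand): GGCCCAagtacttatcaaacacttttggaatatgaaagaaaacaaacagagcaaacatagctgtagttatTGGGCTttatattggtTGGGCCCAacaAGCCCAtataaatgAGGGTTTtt
NOP56 (AT1G56110, chr1:20986953-20987072, minus strand): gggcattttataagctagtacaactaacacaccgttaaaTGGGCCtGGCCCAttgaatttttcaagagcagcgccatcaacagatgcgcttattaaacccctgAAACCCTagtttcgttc
AT5G27120 (NOP56-like, chr5:9540741-9540860, plus strand): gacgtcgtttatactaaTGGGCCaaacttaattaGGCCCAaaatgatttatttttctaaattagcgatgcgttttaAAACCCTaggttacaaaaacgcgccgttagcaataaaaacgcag
EMB2777 (AT2G43650, Sas10/U3 ribonucleoprotein family, chr2:18099116-18099235, plus strand): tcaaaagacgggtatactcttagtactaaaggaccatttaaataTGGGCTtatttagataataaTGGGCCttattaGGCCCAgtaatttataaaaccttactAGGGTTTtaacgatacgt
AT5G66540 (annotated to the nucleolus or cytosol, chr5:26559453-26559572, minus strand): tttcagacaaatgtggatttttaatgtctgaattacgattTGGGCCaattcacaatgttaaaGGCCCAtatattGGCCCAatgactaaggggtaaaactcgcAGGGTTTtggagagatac
COR15A (AT2G42540, chr2:17712331-17712450, minus strand): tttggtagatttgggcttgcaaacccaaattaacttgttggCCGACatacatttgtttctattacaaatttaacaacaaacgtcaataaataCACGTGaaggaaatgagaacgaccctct

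In these 6 promoters the telo-box lay between the site II elements and the gene start. The order was the opposite in AT1G23280, also a nucleolar member, whose telo-boxes lie farther from the start than the 120 bases shown and whose site II letters lie nearer to it. The COR15A promoter also holds site II letters (TGGGCT), left in lower case. Over 250 bases before the start, counting both strands, 13 of the 48 ribosome and nucleolus members held a telo-box (27.1%) and 29 a site II element (60.4%), against 6.3% and 23.6% of all 16770 genes examined with a promoter. The other 200 members with a promoter were near the background when pooled, at 5% and 26%, but their roles were unlike. Site II letters stood before 12 of 25 members of organelle folding, import and expression and 9 of 15 other RNA-binding members. They stood before 1 of 13 transcription factors and none of the 9 cell cycle, cytokinin and auxin members. Of the 302 ribosomal protein genes examined, members and non-members alike, 18.5% held a telo-box and 57.6% a site II element, so these letters are common in that class. The shares were 26.7% and 66.7% in the 15 cytosolic ribosome members and 16.7% for both in the 6 organelle ribosome members. They were 29.6% and 66.7% in the 27 biogenesis and nucleolar members, against 12.9% and 45.2% of the 186 genes annotated to the nucleolus. Whether members differ from their classes was not tested. The G-box was found before 6.45% of the 248 members with a promoter and 7.54% of all genes, and CCGAC before 8.87% and 13.4%. Among the 6 cold and dehydration members, CCGAC stood before COR15A alone and the G-box before 2, so COR15A was not typical of its role. These are letter matches, which do not show that a factor binds there, and TGGGCC overlaps with its reverse complement GGCCCA in the run TGGGCCCA.

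**Figure D1:**
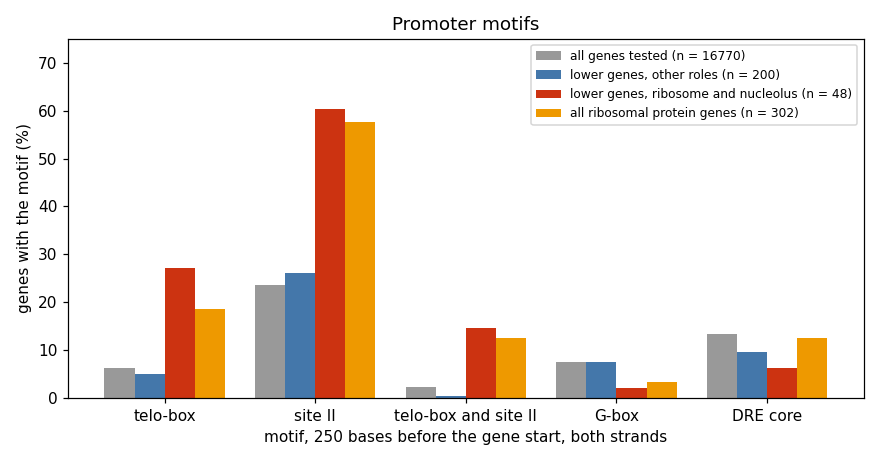
Share of genes (y axis, percent) with each motif (x axis) in the 250 bases before the gene start, for all genes examined, the 200 lower genes of other roles, the 48 lower genes of the ribosome and nucleolus, and the 302 ribosomal protein genes. The ribosome and nucleolus genes and the ribosomal protein class as a whole carry telo-box and site II letters at shares above those of all genes.

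Structural proteins of the cytosolic ribosome were among the most abundant members. AT1G09690, annotated as a translation protein of the SH3-like family, had 258.6 and 158.4 FPKM in replicates 1 and 2 of WT, against 160.7 and 101.2 in *ldl1 ldl2*. Its WT replicate 2 lay below the mutant replicate 1, so the genotypes overlapped although both ratios were low. The steepest genotype ratio in the group was that of AT2G47610, of the L7Ae family, with 215.9 and 97.5 FPKM in WT and 84.5 and 62.7 in the mutant. Its mean log2 ratio was -0.99, and most of it came from replicate 1, at -1.34 against -0.63. AT5G27850, of the L18e/L15 superfamily, had 235.2 and 159.01 FPKM in WT and 139.3 and 102.0 in the mutant, and here both mutant libraries lay below both WT libraries. Over the 15 genes the median log2 ratio was -0.69 in replicate 1 and -0.67 in replicate 2. Of them, 12 did not overlap between the genotypes, against 13.3% of all genes examined. The rule used the same values, so nothing is read from this count or from those of the other roles.

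Several of these genes belong to small families in which close copies share sequence, so reads may be split between copies. RPS5B, a small-subunit protein, was measured at 60.8 and 53.0 FPKM in WT and at 30.3 and 32.9 in the mutant. Its copy RPS5A was more abundant, at 155.4 and 173.9 in WT and 132.1 and 129.0 in the mutant, and was not a member. RACK1B and RACK1C, scaffold proteins on the small subunit, had replicate 1 and 2 log2 ratios of -0.59 and -0.64 and of -0.71 and -0.63. RACK1A, the most abundant of the family at 106.04 and 81.2 FPKM in WT, lay just outside the rule at -0.54 and -0.56. RPL5B was a member at -0.62 and -0.63, whereas its copy RPL5A had -0.64 in replicate 1 and -0.36 in replicate 2. In the RACK1 family membership therefore separated copies with similar ratios.

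The 27 ribosome biogenesis and nucleolar genes had low to moderate levels, with WT means from 1.78 to 64.9 FPKM. The most abundant was NUC-L1, a nucleolin that binds ribosomal DNA and RNA, at 51.1 and 78.7 FPKM in WT and 30.2 and 37.7 in the mutant. NOP56, a core protein of the box C/D particles that guide ribosomal RNA methylation, had 9.32 and 9.84 FPKM in WT and 4.13 and 4.82 in the mutant. NAP57, the plant dyskerin that makes pseudouridine in ribosomal RNA, had 4.14 and 7.83 in WT and 1.91 and 3.13 in the mutant. In each of these genes both mutant libraries lay below both WT libraries, and this was so for all 27. IMP4, a Brix-domain protein of the U3 particle, was low mainly in replicate 2, with log2 ratios of -0.77 and -1.43, and AT4G15770, annotated as RNA binding, mainly in replicate 1, with -1.29 and -0.83. The methyltransferases OLI2 and RID2, both needed for ribosomal RNA maturation and leaf growth, stood at -1.001 and -0.68 and at -0.89 and -0.67. ATRPAC42, a subunit shared by RNA polymerases I and III, had 2.09 and 2.10 FPKM in WT and 1.00 and 0.68 in the mutant. The background for such non-overlap was 13.3% of all genes examined, but the rule used the same values, so nothing is read from the 194 of 252 members without overlap.

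Genes of these classes that did not pass the rule also had ratios lying mostly below those of all genes. Of 323 genes described as ribosomal proteins, 22 (6.81%) were members and 1 was in the higher group. Without those 22, the other 301 had a median mean log2 ratio of -0.35, and 218 of them (72.4%) lay below 0 in both replicate numbers, compared with -0.04 and 30.0% of the 16653 genes outside the member group. Annotation of the cytosolic large subunit marked 98 genes, with 8 members, none higher, a median of -0.43 and 90 genes below 0 in both. The nucleolus annotation marked 186 genes, with 15 members, none higher and a median of -0.31. Ribosome biogenesis marked 98 genes with 8 members and a median of -0.39. By contrast, the list of 38 light-harvesting and photosystem genes had no member, 1 higher gene and a median of 0.17, and the 2168 genes annotated to the chloroplast had 25 members (1.15%), a share near the 1.49% of all genes. Without the members, the medians were -0.42 for the large subunit, -0.28 for the nucleolus and -0.38 for ribosome biogenesis. The classes were described with the members known, and the ratios come from the same 4 libraries as the rule. These medians carry no test, and they lend no support to a difference between the genotypes. Under upper-quartile and quantile scaling the ribosomal protein median was -0.37 and -0.32, that of the large subunit -0.42 and -0.37 and that of the nucleolus -0.30 and -0.29.

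**Figure D2:**
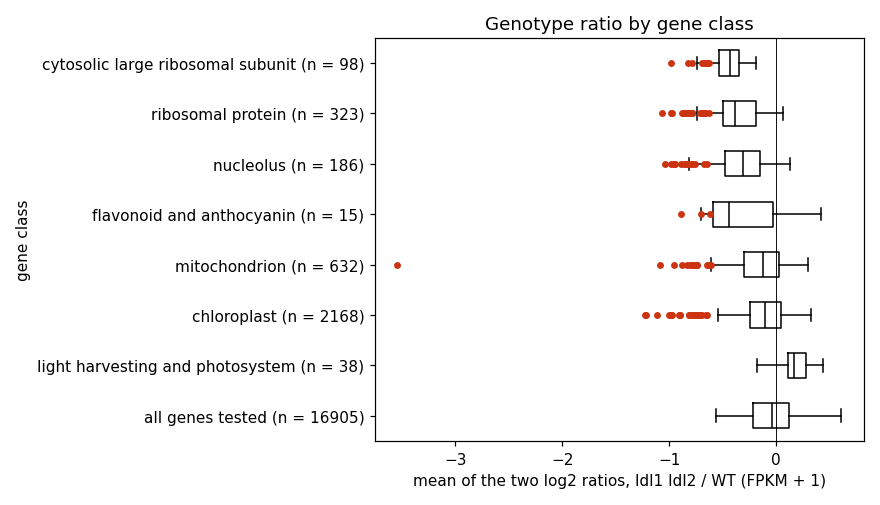
Mean of the 2 log2 genotype ratios (x axis) for gene classes (y axis). Boxes give the quartiles and median, whiskers the 5th and 95th percentiles, and red points the member genes of each class (shown for the classes, not for all genes). The medians of the large-subunit, ribosomal protein and nucleolus classes lie at -0.43, -0.38 and -0.31, and that of all genes at -0.04.

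Genes of organelle functions were also among the members. The mitochondrial and plastid ribosome was represented by 6 genes, among them mitochondrial RPS10, with 9.14 and 6.96 FPKM in WT and 5.23 and 4.15 in the mutant, and RFC3, a plastid ribosomal protein, with 33.7 and 21.1 in WT and 20.1 and 12.6 in the mutant. In all 6 the genotypes did not overlap (13.3% of all genes examined), from which nothing is read, as the rule used these values. Among the 25 genes of organelle folding, import and expression were chaperonins. CPN60A, a subunit of the plastid chaperonin that helps to fold Rubisco, had 105.9 and 41.9 FPKM in WT and 49.4 and 24.7 in the mutant, with overlap because its WT replicate 2 was low. The mitochondrial chaperonins HSP60 and HSP60-2 had log2 ratios of -0.89 and -0.87 and of -0.89 and -0.60, and MTHSC70-2, a mitochondrial HSP70, had -0.63 and -0.67. TOM40, the pore of the outer mitochondrial membrane, lay close to the limit at 15.9 and 16.2 FPKM in WT and 10.2 and 10.1 in the mutant. SCA3, a plastid RNA polymerase, was at 6.14 and 4.45 in WT and 3.02 and 1.59 in the mutant. Of 632 genes annotated to the mitochondrion, 15 were members (2.37%), 10 were higher and the median was -0.12. Of 170 genes described as heat shock proteins, 3 were members (1.76%, against 1.49% of all genes), HSP60 and HSP60-2 among them, and 5 were higher.

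RNA-binding members outside the ribosome included the glycine-rich proteins GRP4, GR-RBP2 and GR-RBP3. GRP4 had 12.7 and 10.7 FPKM in WT and 6.18 and 2.92 in the mutant, and its ratio was lower in replicate 2 (-1.58) than in replicate 1 (-0.93). GR-RBP2 was abundant, at 67.5 and 119.1 in WT and 41.4 and 68.8 in the mutant, and overlapped between the genotypes. SmD3, a core protein of spliceosomal particles, had 21.8 and 18.3 in WT and 12.4 and 9.36 in the mutant.

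The chromatin members were NRP1 and NRP2, which are histone chaperones of the NAP1 family, the histone deacetylase HDA3, the WD-40 protein MSI3 and 2 genes of the histone superfamily. NRP2 had 9.58 and 6.84 FPKM in WT and 3.27 and 2.49 in the mutant. NRP1 had 38.2 and 32.3 in WT and 24.9 and 14.9 in the mutant, a lower ratio in replicate 2 than in replicate 1. HDA3, which is a nucleolar deacetylase, had 6.08 and 6.62 in WT and 3.42 and 2.27 in the mutant. All of these were lower in the mutant without overlap, as was AT5G59970 of the histone superfamily, while AT5G10390 overlapped. Nucleosome assembly was the annotation of 49 genes, of which 4 were members and 1 was higher.

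Growth-related members were few. The type-A response regulator ARR9, a cytokinin-induced gene, had 36.8 and 22.9 FPKM in WT and 19.2 and 13.6 in the mutant. CDC20.1, an activator of the anaphase-promoting complex, had 1.79 and 2.23 in WT and 0.76 and 0.78 in the mutant, and HPY2, a SUMO ligase, 2.77 and 3.27 against 1.04 and 1.36. None of the 23 genes of the cell division list were members, none were higher, and their median was -0.30. Of 45 SAUR genes, which respond to auxin, 2 were members and 2 were higher: SAUR29 had 34.3 and 8.04 FPKM in WT and 19.6 and 3.01 in the mutant, and AT1G29430 had 48.2 and 9.31 and then 31.4 and 5.35. In both, the mutant replicate 1 lay above WT replicate 2. SAUR genes lie in clusters of close copies, so these values are uncertain.

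Transcription factors made up 13 members. The bHLH factor FBH3 had 28.4 and 89.8 FPKM in WT and 13.1 and 41.5 in the mutant, with near-equal log2 ratios of -1.06 and -1.10. The bHLH class of 65 genes held 4 members, FBH3, ALC, AT3G61950 and AT3G56770, and 3 higher genes. AGL24 and AGL19, MADS-box promoters of flowering, were the members among 24 genes of the flowering list, which also held 4 higher genes. AGL24 had 21.1 and 10.5 FPKM in WT and 6.36 and 5.60 in the mutant, and AGL19 had 4.01 and 2.80 and then 1.19 and 1.16, both without overlap. RVE8, a morning-expressed MYB-like activator of evening clock genes, had 15.8 and 2.60 in WT and 5.93 and 1.28 in the mutant. It was the member among 13 morning clock genes, and the 12 evening clock genes held none. ABF3, a bZIP factor of abscisic acid signaling, had 44.4 and 55.9 in WT and 19.9 and 34.7 in the mutant. Of the NAC, WRKY and AP2/ERF classes, with 35, 33 and 44 genes, none was a member and 3, 7 and 8 were higher.

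Cold and dehydration members included the most abundant protein-coding genes of the group. COR15A, which protects chloroplast membranes in the cold, had 649.6 and 1369 FPKM in WT and 354.3 and 872.8 in the mutant. P5CS1, which makes proline under drought, had 172.7 and 898.03 in WT and 100.9 and 546.4 in the mutant. KIN1, a small cold- and abscisic acid-induced protein, had 8.62 and 237.5 in WT and 4.45 and 156.7 in the mutant. In all 3 the mutant replicate 2 was above WT replicate 1, so that the genotypes overlapped, and the same held for the other 3 genes of this group, ANNAT1, LTP3 and LTP4. The lipid transfer proteins LTP3 and LTP4 are neighbours on chromosome 5, with 2996 bp between them, and are close copies. LTP4 had 7.66 and 60.6 FPKM in WT and 1.71 and 9.76 in the mutant, and LTP3 had 73.4 and 226.0 and then 23.3 and 111.8. Close copies of KIN1 and COR15A met the limit in replicate 1 but not in replicate 2. KIN2 had 294.6 and 4872 FPKM in WT and 133.2 and 4227 in the mutant, with log2 ratios of -1.14 and -0.20. COR15B had 83.7 and 788.1 and then 48.04 and 973.4, with log2 ratios of -0.79 and 0.30. KIN1 and KIN2 are close copies whose reads may be shared, so their values are uncertain. The abscisic acid and dehydration list of 39 genes held 4 members, P5CS1, COR15A, ABF3 and KIN1, with 1 higher gene and a median of -0.20. By contrast, the cold list of 12 genes held no member and 4 higher genes. Its median was 0.14, with 0.44 in replicate 1 and -0.18 in replicate 2.

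Starch and phenylpropanoid genes were members in small numbers. GBSS1, the starch synthase that makes amylose, had 81.4 and 8.38 FPKM in WT and 29.0 and 4.48 in the mutant. BMY3, a beta-amylase, had 38.7 and 8.16 and then 22.9 and 4.74, and APL2, a large subunit of ADP-glucose pyrophosphorylase, had 3.90 and 6.81 and then 1.90 and 3.95. These 3 were the members among 47 starch and sugar genes, whose median was -0.14. In the flavonoid and anthocyanin list 3 of 15 genes were members and none was higher, with a median of -0.44. PAL1, the entry enzyme of the pathway, had 20.7 and 12.7 in WT and 11.4 and 8.08 in the mutant, without overlap. Its copy PAL2 was above WT, at 24.3 and 12.9 in WT and 33.4 and 17.3 in the mutant. F3H, a flavanone hydroxylase, had 18.5 and 5.23 and then 9.47 and 2.39, and GSTF12, which carries anthocyanins to the vacuole, 14.9 and 0.905 and then 9.59 and 0.219. CHIL, a chalcone isomerase-like protein outside the list, had 24.7 and 3.60 in WT and 8.47 and 2.01 in the mutant.

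Some of the steepest ratios belonged to genes of biotic responses. PCC1, named for its control by pathogens and the circadian clock, had 69.1 and 25.5 FPKM in WT and 15.5 and 2.32 in the mutant, a mean log2 ratio of -2.54. VSP1, a jasmonate-induced storage protein of the leaf, had 4.06 and 21.8 in WT and 0.744 and 1.51 in the mutant. LURP1, a gene induced in defense against the oomycete Hyaloperonospora, had 15.6 and 10.7 in WT and 6.59 and 1.78 in the mutant. In each of these the genotypes did not overlap. AT3G22235, 7585 bp from PCC1 on chromosome 3, had 271.6 and 60.7 in WT and 101.1 and 10.8 in the mutant, with overlap. Over the 9 genes of this group the median log2 ratio was -1.17 in replicate 1 and -2.07 in replicate 2, and in 3 of them the lower ratio was that of replicate 1. VSP1 and LURP1 were the members among 18 jasmonate output genes and 17 salicylic acid genes, which held 2 and 4 higher genes. The median of the jasmonate list was -0.21, and that of the salicylic acid list was 0.41, on the side opposite to LURP1.

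**Figure D3:**
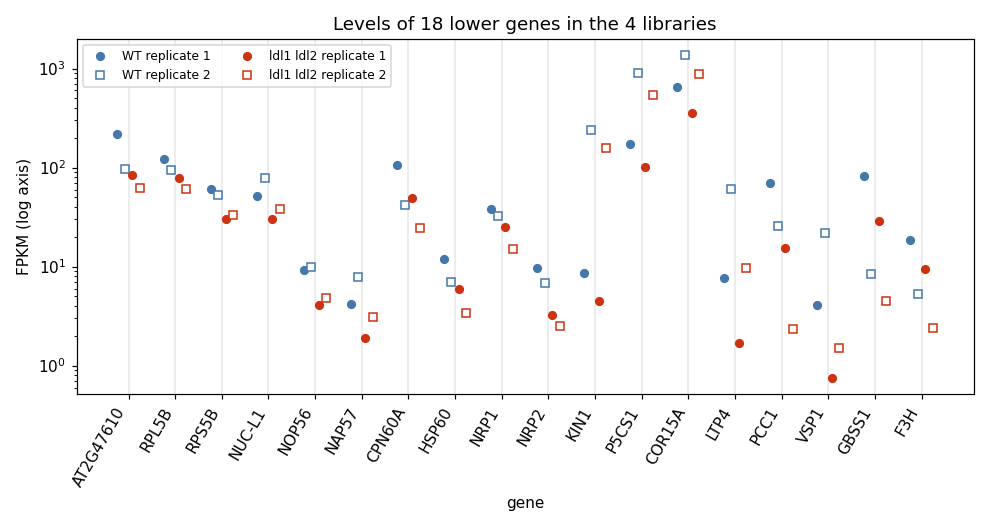
FPKM on a log axis (y axis) of 18 lower genes (x axis) in the 4 libraries, blue for WT, red for *ldl1 ldl2*, filled circles for replicate 1 and open squares for replicate 2, each point being 1 library. In KIN1, P5CS1 and LTP4 the *ldl1 ldl2* replicate 2 lies above WT replicate 1, and in GBSS1 the *ldl1 ldl2* replicate 1 lies above WT replicate 2.

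Other members with steep ratios had a known family but no settled role in leaves. AT3G05160, a sugar transporter-like protein of the major facilitator superfamily, had 17.0 and 38.6 FPKM in WT and 3.30 and 4.33 in the mutant. SAG29, a senescence-associated sugar transporter, had 6.21 and 6.03 and then 1.83 and 0.909. AT5G44540 and AT4G20420, annotated as tapetum-specific proteins of the flower, had 5.97 and 12.2 against 2.41 and 0.827, and 1.05 and 7.53 against 0.323 and 0.419. In both, WT replicate 2 was the highest library, which was also the library with the highest sum of flower markers, 14.1 FPKM against 0.602 to 4.89 in the others. The part of flower RNA in these values was not tested. In leaf RNA pooled from many cells, fewer cells of a type and less RNA per cell cannot be told apart.

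Of the 252 members, 245 were protein-coding genes, 3 transposable element genes, 3 other RNAs and 1 a small nuclear RNA. The U12 small nuclear RNA was listed at 20.2 and 14.2 FPKM in WT and at 0 in both mutant libraries, and AT4G26055 at 11.4 and 7.91 and again at 0 in both. AT5G66053 was listed at 84.5 and 909.9 FPKM in WT, against 0 and 571.5 in *ldl1 ldl2*, so its replicate 1 ratio rests on a 0. A 0 in such tables can also be a failed estimate, so no fold is given for these. In all, 4 members were listed at 0 in at least 1 library. The members were expressed at a lower level than the genes examined as a whole, with a median mean FPKM of 5.56 against 12.1, and 117 of them had a mean under 5 FPKM. They were also shorter, with a median gene length of 1970 bp (248 members with a length) against 2424 bp.

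Members lay on all 5 chromosomes, at 1.26% of the examined genes of chromosome 1, 1.62% of chromosome 2, 1.41% of chromosome 3, 1.54% of chromosome 4 and 1.66% of chromosome 5. A further 4 members were unmatched or mitochondrial, with the mitochondrial loci ATMG01220 and ATMG01370 among them. Within 500 kb of LDL1 on chromosome 1 there were 4 members among 135 genes, FMO GS-OX2, BETA-VPE, AT1G63660 and IMP4, and within 500 kb of LDL2 on chromosome 3 there were 2 among 178, AT3G13230 and AT3G13674. Within 10 kb of each other lay 8 pairs of members. In 2 of these pairs, AT3G19000 with the antisense AT3G19002 and CPUORF47 with LUL1, the genes overlap on opposite strands. The kit marks strand, but how strand was used in the estimates is not given in the sources used here, so the values of overlapping genes are uncertain.

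The depth of the genotype difference varied between the replicate numbers gene by gene. Of the 252 members, 25 were at least 2-fold lower in both replicate numbers (0.148% of all genes examined), 49 in replicate 1 alone, 27 in replicate 2 alone and 151 in neither. The lower ratio was that of replicate 1 in 133 genes and that of replicate 2 in 119, and the medians were -0.82 and -0.78. Replicate 1 alone would have chosen 1521 genes and replicate 2 alone 1162, so most genes that were low in one were not low in the other. At the limit of the rule, on the weaker of the ratios, AT3G13230, RACK1B and GSTF12 were just inside at -0.588, -0.587 and -0.586, and AT4G13800, PRMT3 and RUG2 just outside at -0.584, -0.584 and -0.582. The last 3 cannot be told from the first 3 by their values.

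**Figure D4:**
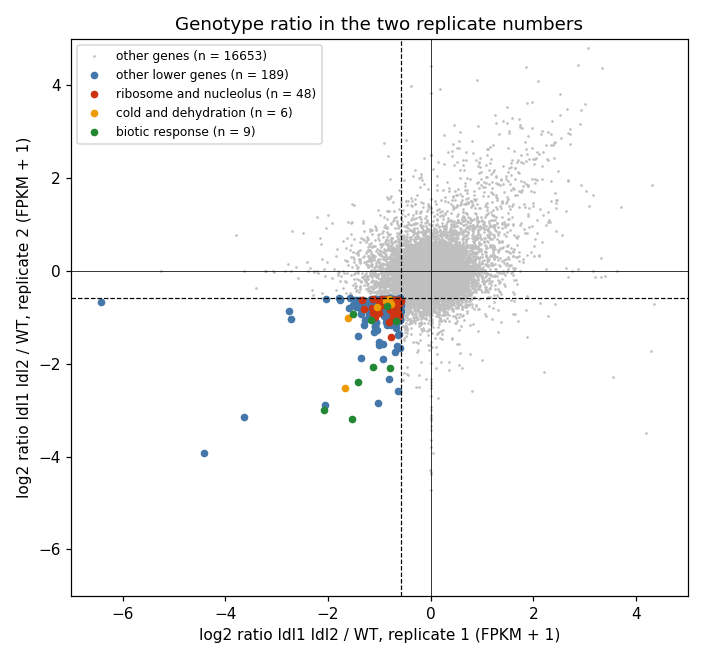
log2 genotype ratio in replicate 1 (x axis) and replicate 2 (y axis) for the genes examined, each point being 1 gene, with the limit of the rule as dashed lines. The axes run from -7 to 5 and leave out 23 genes, none of them a member, and the points of U12, AT4G26055 and AT5G66053 rest on a 0. The 48 ribosome and nucleolus members crowd near the limit in both replicate numbers, while the 9 biotic response members extend further down in replicate 2.

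The replicate numbers themselves differed strongly, and this comparison, replicate 2 against replicate 1 across both genotypes, was not used by the rule. With limma on log2(FPKM + 1), with genotype as a term, two-sided p-values and adjustment by Benjamini-Hochberg over all genes, 31 members were higher in replicate 2 and 40 lower at an adjusted p under 0.05. Among all genes, 13.2% were higher and 10.7% lower, a total of 23.9%, against 71 of 252 members. Higher calls made up 2238 of 4044 over all genes, but 1342 of 2972 with quantile scaling, where the members had 21 higher and 39 lower calls, so the balance of directions over all genes turns with the scaling. The median difference, replicate 2 minus replicate 1, was -0.17 in the members and 0.14 in all genes, and members stayed below all genes by 0.30 or 0.31 on the log2 scale under the scalings tried, while all genes moved from 0.14 to 0.06 with upper-quartile and 0.03 with quantile scaling. The spread of this fit rests on the difference between the 2 genotype ratios, which the rule also limited, so the count of called members is not free of the rule. Without the genotype term 15 members were called.

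By size alone, 18 members were at least 2-fold higher in replicate 2 in both genotypes (5.02% of all genes) and 20 at least 2-fold lower (4.34%). The 6 cold and dehydration members were all called higher in replicate 2, against 13.2% of all genes. Such a shift was not particular to the members. The cold list of 12 genes held no member, and its median replicate difference was 4.041 in WT and 3.498 in *ldl1 ldl2*. In the abscisic acid and dehydration list of 39 genes, 4 of them members, the median was 1.94 and 1.78. Over all genes it was 0.198 and 0.072. KIN1 differed by 4.74 ± 0.244 (log2, SE, adjusted p = 6.4e-08 by limma), P5CS1 by 2.40 ± 0.252 (adjusted p = 2.26e-05 by limma) and COR15A by 1.19 ± 0.257 (adjusted p = 0.0051 by limma). Also far higher in replicate 2 were the amino acid transporter-like AT2G41190, at 5.73 and 50.9 FPKM in WT and 1.80 and 28.6 in the mutant, AT5G45310, at 4.68 and 32.9 and then 2.45 and 17.2, and AT5G02550, at 1.63 and 23.4 and then 0.731 and 6.73. In these genes the level in the mutant replicate 2 was above that of WT replicate 1.

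The members lower in replicate 2 were of other kinds. GSTF12 differed by -3.09 ± 0.250 (log2, SE, adjusted p = 3.05e-06 by limma), GBSS1 by -2.79 ± 0.257 (adjusted p = 8.13e-06 by limma), and CR88, a plastid HSP90 chaperone, by -2.15 ± 0.241 (adjusted p = 3.84e-05 by limma). CR88 had 76.02 and 15.9 FPKM in WT and 42.5 and 9.13 in the mutant. RVE8, BMY3, CHIL, F3H and PCC1 were also called lower in replicate 2. Clock genes outside the members differed too: the morning gene CCA1 had 50.4 and 3.85 FPKM in WT and 16.6 and 2.44 in the mutant, and the evening gene TOC1 had 2.94 and 109.1 and then 3.48 and 88.0. The labels give no harvest time, and its part in these differences was not tested.

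The ribosome roles had unlike median differences between the replicate numbers. The 27 biogenesis and nucleolar genes had a median difference of 0.14, equal to that of all genes, and 1 of them, AT4G12600, was called (lower). The 15 cytosolic ribosome genes had a median of -0.50, with 3 called lower, AT1G18540, AT2G47610 and AT4G29410. The 6 organelle ribosome genes had -0.33 with none called. Over all genes examined 13.2% were called higher and 10.7% lower, so nothing is read from the counts in these small sets. The RNA of the cytosolic ribosome members summed to 1926 FPKM in WT replicate 1, 1291 in WT replicate 2, 1137 in *ldl1 ldl2* replicate 1 and 795.6 in *ldl1 ldl2* replicate 2, so that both mutant sums lay below both WT sums. The cold and dehydration genes summed to 1026, 3019, 539.5 and 1830 FPKM in the same order, and there the mutant replicate 2 exceeded WT replicate 1. The rule chose genes with low mutant values in each replicate number, so nothing about the genotypes is read from these sums.

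**Figure D5:**
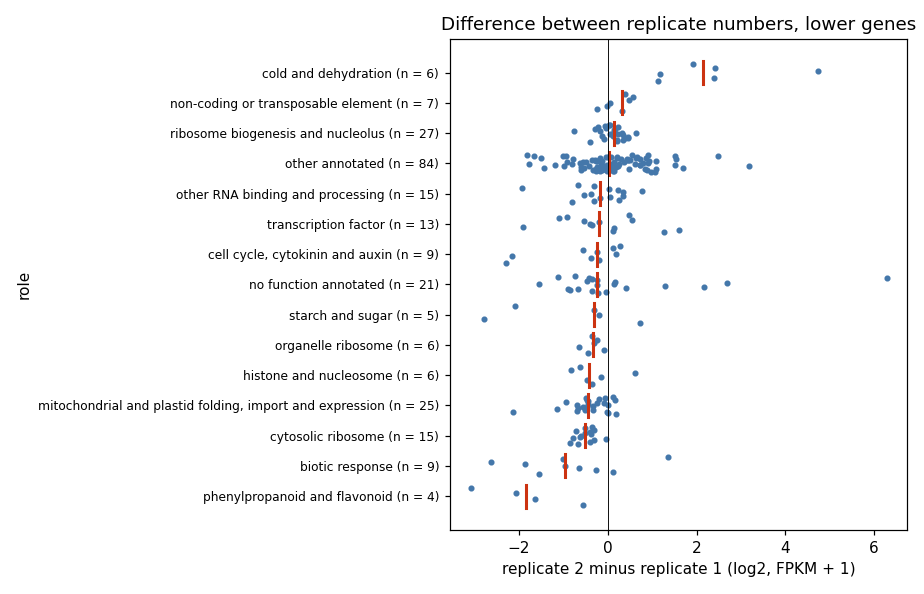
Replicate 2 minus replicate 1 in log2(FPKM + 1), averaged over both genotypes (x axis), for the 252 lower genes by role (y axis), each point being 1 gene and each red bar the median of the role. The cold and dehydration genes lie above 0, the phenylpropanoid genes below it, and the median of the nucleolar genes is 0.14.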

How the data were processed

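Leaf RNA was measured in 4 libraries, 2 per genotype, by 100 bp paired-end sequencing of stranded mRNA libraries. The authors aligned reads with TopHat2 and Bowtie2 and estimated the deposited FPKM values with Cufflinks on TAIR10 gene models, per library. The submitters' processing notes name Trimmomatic 0.33. No source used here gives the other versions. FPKM divides reads by transcript length and library size. Read depth is unknown, so no count test, counting interval or detection limit was computed.

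Values were used unscaled as log2(FPKM + 1) for the 16905 of 32633 loci whose mean reached 1 FPKM. Fold changes on this scale understate the change of low genes. Replicate numbers were compared with limma 3.58.1 (R 4.3.3) with a mean-variance trend, which was also tested on simulated data. The spread behind these p-values is how far the replicate difference varied between the genotypes, with limma sharing information across genes. Each genotype had a single library per replicate number, so the p-values do not measure the spread within a replicate number. An exact permutation test of 2 against 2 cannot go below p = 0.333. The members and gene lists were chosen with earlier results of these data known. Genes were named by rule (the lowest ratios, the highest WT levels, up to 4 members per list or keyword class, the largest replicate differences, both edges of the threshold, neighbours within 10 kb), and further genes of each role were chosen after their values were seen. Functions, positions and promoters came from RefSeq TAIR10.1, where 248 members had a position and 241 an annotation note. Symbols that matched no single locus (43) were left out of the lists. Alternatives were another pseudocount and minimum, 2 scalings, a 2-fold ratio and omission of each replicate.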

Additional observations from a re-analysis of the deposited data

Results flagged for a closer look

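In 3 members the replicate numbers differed in opposite directions in the genotypes by at least 0.5 on the log2 scale each way, and the difference was not tested. AT5G44540, annotated as tapetum-specific, was higher in replicate 2 in WT (0.92) and lower in *ldl1 ldl2* (-0.90). The overlapping genes AT3G19000, an oxygenase, and AT3G19002, on the opposite strand, were lower in replicate 2 in WT (-0.61 and -0.60) and higher in *ldl1 ldl2* (0.59 and 0.54). Such genes made up 1.19% of the members and 0.763% of all genes examined.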

How the results depend on the processing

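The rule gave 481 genes with a pseudocount of 0.1, 135 with a minimum mean of 5 FPKM and 25 with a 2-fold ratio. It gave 236 with upper-quartile scaling (228 shared with the 252) and 220 with quantile normalization (206 shared). A single replicate number gave 1162 (without replicate 1) to 1521 (without replicate 2). As a background for the genotype contrast, limma called 0 of 16905 genes lower (92 at an unadjusted p under 0.05), and 0 to 1 when each library was left out, the 1 without *ldl1 ldl2* replicate 2. With a replicate block it called 37 lower and 311 higher, a block for which the labels give no shared source. Deviations of same-numbered libraries from their genotype mean correlated at 0.726 across 16905 genes in 2 pairs. With 2 libraries per genotype the pairs mirror each other, so this is a single comparison. Calls between replicate numbers fell from 4044 to 1685 over all genes and from 71 to 36 over members with no minimum on FPKM, and to 1981 and 15 without the genotype term. Higher calls over all genes were 2238 of 4044, but 1421 of 3012 with upper-quartile and 1342 of 2972 with quantile scaling. The members' median replicate difference was -0.24 with upper-quartile scaling, -0.28 with quantile normalization and -0.090 in the *ldl1 ldl2* libraries alone. The cause was not tested, apart from a changed set of genes where the minimum changed. Leaving a library out of the replicate fit leaves no residual degrees of freedom, so no value was computed. With quantile scaling 7 of 99 added values (88 named genes, 11 class medians) moved by more than their replicate SD, with the pseudocount of 0.1 41 did, with upper-quartile scaling none did, and none changed sign.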

Other observations

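Some pathways had low values in 1 replicate number and held no member. Of 25 pathway lists, 11 held a member. The sulfur deficiency list (16 genes examined) had a median log2 ratio of -1.34 in replicate 1 and 0.12 in replicate 2, with 5 genes below 0 in both and no member. The aliphatic glucosinolate list (20 genes), whose products are sulfur-rich defense compounds of the Brassicaceae, had -0.64 in replicate 1 and 0.20 in replicate 2, with 6 genes below 0 in both. FIB1, a fibrillarin that methylates ribosomal RNA in the nucleolus and is named here after its values were seen, was low in replicate 2 (60.4 FPKM in WT and 28.1 in *ldl1 ldl2*) more than in replicate 1 (75.3 and 59.5), and so lay outside the rule. These values carry no test.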
